A study of Mus musculus with 9 samples.

Results

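Heart muscle cells taken from the heart (cardiomyocytes, CM) were set against beating cells made from fibroblasts with small molecules (chemical-induced cardiomyocyte-like cells, CiCM), across all genes of an expression array. The comparison used the 3 arrays of CiCM and the 3 arrays of CM among 9 arrays in the series. Each gene was read from a probe set that carries exactly 1 gene symbol, and where several probe sets carried it, from the one with the highest mean over the 9 arrays. This gave 18193 genes, of which 12559 had a mean of at least 6.58, the median of the deposited log2 table, in at least 1 of the 3 cell types and were tested. The other 5634 lay under that line in every cell type and were not tested. A gene high in 1 cell type alone entered the test through that type. Counts and medians for lists of such genes lean to that side in part through this filter.

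The CiCM had been treated with 6 compounds: CHIR99021 at 10 µM, a GSK3 inhibitor that raises Wnt/beta-catenin signalling; RepSox at 10 µM, which blocks TGF-beta signalling at its receptor; forskolin at 50 µM, which raises cAMP; VPA at 0.5 mM, a histone deacetylase inhibitor; Parnate at 5 µM, an inhibitor of monoamine oxidases and of the demethylase LSD1; and TTNPB at 1 µM, an agonist of retinoic acid receptors. They started as mouse embryonic fibroblasts (MEF), and only beating clusters, picked on day 24, were used. The CM came straight from mouse hearts, with no age, strain or chamber given in the labels, and were neither cultured nor treated with the compounds as far as the labels say. The third group, MEF from C57BL/6 embryos at embryonic day 13.5, serves here as the level of the starting cells. A CiCM sample is therefore a hand-picked part of a treated culture and a CM sample a preparation from hearts whose age and chamber are not given. The culture and the treatment differ between the groups together, the age of the cells may differ too, and these cannot be told apart.

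Striated muscle of the heart and of the skeleton contracts with the same machine, built largely from different members of the same protein families. In both, myosin pulls on actin, and calcium released from the sarcoplasmic reticulum through ryanodine receptors lifts the block that troponin and tropomyosin hold on actin. The heart uses its own forms of myosin, troponin and ryanodine receptor, couples its cells through intercalated discs and burns mainly fatty acids, whereas the skeletal forms are switched on by the myogenic factors MyoD and myogenin.

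The label of the CM was checked against the 8 markers of heart muscle cells (Myh6, Myl2, Myl3, Tnni3, Tnnt2, Nppa, Ryr2 and Pln), which all had CM means above 6.58. In CiCM 5 of these 8 were above that line, and Tnni3, Ryr2 and Pln were under it. Of the 5, Nppa was barely above it, with a mean of 6.64 from arrays at 6.48, 6.54 and 6.89, and Myh6 had a mean of 7.13. All 8 markers of skeletal muscle (Myod1, Myog, Myh1, Myh4, Mylpf, Tnnc2, Tnni2 and Ckm) were above the line in CiCM, against 3 of 8 in CM and 0 of 8 in MEF. The summed linear signal of the skeletal markers was 117119 to 126333 on the CiCM arrays and 15996 to 32954 on the CM arrays. Ckm, the muscle creatine kinase that heart and skeletal muscle share, was nearly the whole CM sum and was lower in CiCM (-1.40, a call lost among others without CM replicate 2, with a limma adjusted p of 0.0744, and after levelling on the controls, at -0.83); without it the sums were 107833 to 115794 and 349 to 502. For the heart markers the order was the other way, with 34137 to 34584 in CiCM and 273254 to 342707 in CM. Most of the CiCM sum came from Tnnt2 and Myl2.

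Of the 12559 genes tested, 2075 (16.5%) were higher in CiCM and 2387 (19.0%) were lower, at an adjusted p under 0.05 (limma, Benjamini-Hochberg over all genes tested) and a log2 difference of at least 1, that is 2-fold. The median difference over all genes tested was -0.03. The arrays of both groups did not overlap in 67.9% of all genes tested, so a gap between the groups is common in this comparison. A difference of at least 4 log2 units was reached by 241 of the genes called higher and by 278 of those called lower, and one of at least 8 by 22 and 12. The 10 genes with the largest difference were Tnnc2, Tnni1, Myh8, Tnnt3, Myh3, Myh1, Myh4, Crabp1, Mybph and Actn3. All but Crabp1, a carrier of retinoic acid, encode parts of the contractile apparatus of skeletal or developing muscle. At the other end were Tnni3, Pln, Myh6, Ryr2, Mybpc3, Fabp4, Nebl, Myl3, H2-Aa and Corin, of which Fabp4 is a fatty acid carrier of endothelium and fat cells and H2-Aa a class II antigen presenting protein. These rankings used the difference after 32 was added to the linear signals, because low signals on these arrays are noisy.

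**Figure D1:**
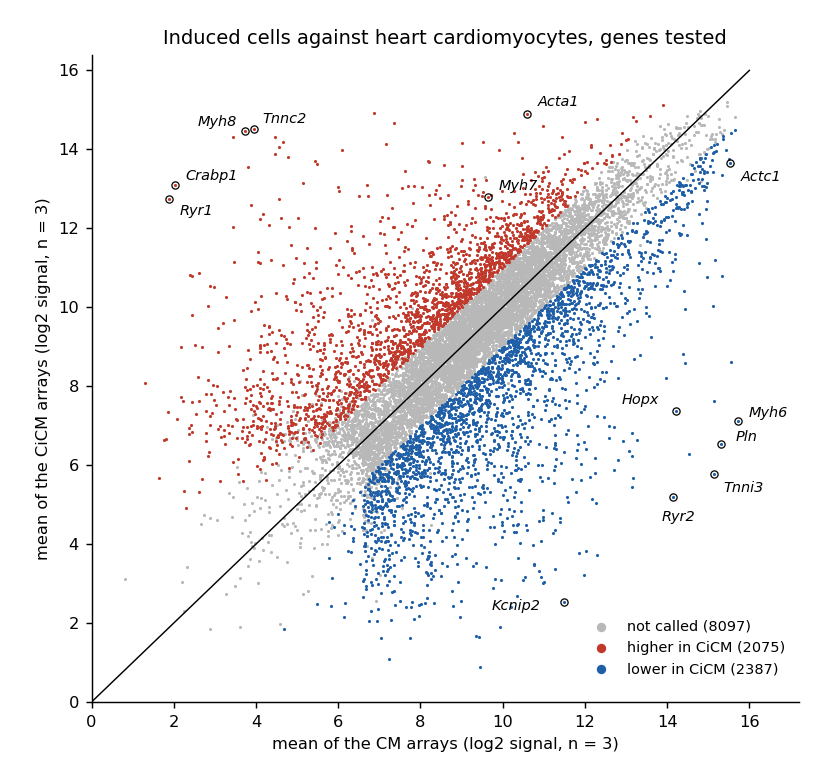
Mean log2 signal of the 3 CM arrays (horizontal) and of the 3 CiCM arrays (vertical) for each of the 12559 genes tested, in red where called higher in CiCM (2075), in blue where called lower (2387) and in grey where not called; the line marks equal means. Tnnc2, Myh8, Ryr1 and Crabp1 stand far above the line, and Tnni3, Pln, Myh6, Ryr2, Hopx and Kcnip2 far below it.

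The arrays differed in level and quality between the groups. Array medians ran from 6.41 to 6.53 in CiCM and from 6.75 to 6.85 in CM. The mean log2 signal of 18 hybridisation control probe sets, which are spiked in and not part of the cells' RNA, was 11.73 to 11.98 in CiCM and 12.10 to 12.78 in CM. The 3' minus 5' difference of the Actb control, which widens as RNA breaks, was 0.28 to 0.48 in CiCM and 0.86 to 1.24 in CM. That of the Gapdh control differed much less, at -0.38 to -0.36 in CiCM and -0.30 to -0.20 in CM. With the deposited values 46.5% of the calls were higher in CiCM; the share was 50.9% after quantile normalization, 62.4% after centring on the array medians, which moves the median of all genes by 0.31, and 74.5% after levelling on the hybridisation controls, which moves it by 0.58. Counts near the limit of 1 log2 unit therefore depend on the scaling, and values in the text are on the deposited scale unless another is named. With 32 added to the linear signals 4103 of the 4462 called genes were called the same way and 0 changed sign. The part of array quality in single differences was not tested. Fewer cells of one type and less RNA of a gene in each cell cannot be told apart in such bulk samples, and neither can a group and a scan or labelling batch that runs along with it.

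The clearest pattern was an exchange of isoforms in families of contraction and calcium handling. In 24 protein families a heart form was set beside a skeletal, developmental or widely used form; both were tested in 22 families, which gave 31 pairs. For myosin heavy chain Myh6 was taken as the heart form and Myh7, which the heart and slow skeletal muscle both use, was placed among the other forms. Of the 22 heart forms so defined that were tested, 16 were lower in CiCM, 0 were higher and 6 did not pass. The 16 include Cox6a2, Cox7a1 and Cox8b, which are muscle forms of cytochrome oxidase, and also Slc2a4 and Ldhb. In these families no other form was called higher, so they show no exchange. Of the 32 other forms tested, 25 were higher, 2 were lower and 5 did not pass. In 19 of the 31 pairs the heart form was lower and the other form higher, and in 30 of the 31 the difference of the other form exceeded that of the heart form; the exception was the pair of Myom2 (-1.63) and Myom1 (-1.75). Pairs of the same family share 1 heart form, so the 31 pairs are not independent. Myh6, Tnni3, Tnnt2, Mybpc3, Ryr2 and Myom2 each stand in more than 1 pair, Myh6 in the most. Each probe set has its own brightness, so the values are differences of 1 probe set between cell types, and no level of one gene is set against that of another.

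**Figure D2:**
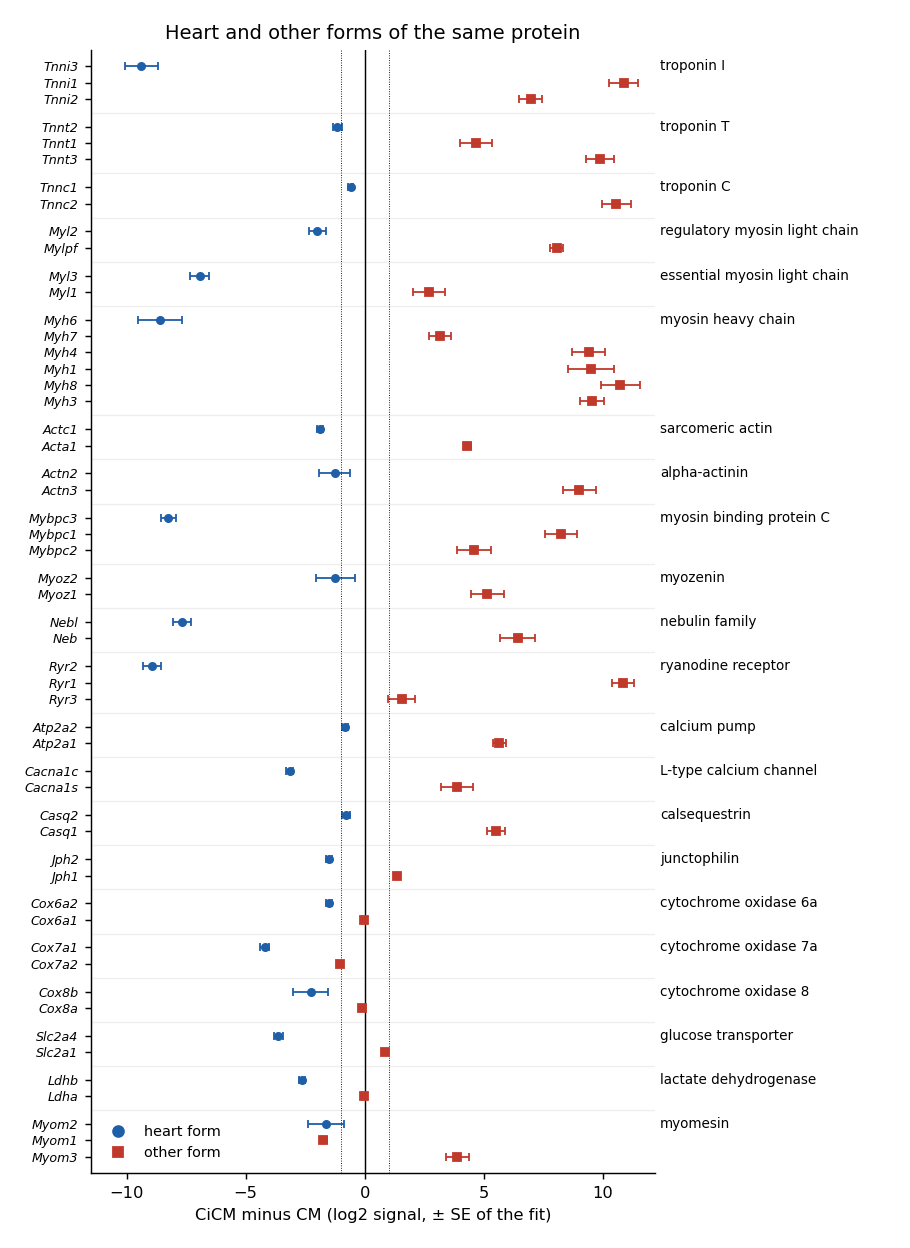
Difference CiCM minus CM in log2 signal (horizontal, with the standard error of the fit) for the heart form (blue circles) and the other forms (red squares) of 22 protein families named at the right; dotted lines mark a difference of 1. In the contractile and calcium families the red squares lie between 1.35 (Jph1) and 10.87 (Tnni1), apart from Myom1 at -1.75, while the blue circles reach down to -9.38 (Tnni3).

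Troponin I, the subunit that blocks actin at rest, showed the widest exchange. On the CiCM arrays the heart form Tnni3 read 5.02, 6.80 and 5.48, and on the CM arrays 14.87, 15.33 and 15.25. No CiCM array came near a CM array, and the difference was -9.38 ± 0.70 (SE; limma adjusted p = 1.11e-06). The slow form Tnni1, used by slow skeletal fibres and by the embryonic heart, read 14.20, 14.40 and 14.31 in CiCM and 4.86, 3.13 and 2.30 in CM. Its difference was 10.87 ± 0.61 (adjusted p = 1.35e-07), and the MEF mean was 4.09. The fast form Tnni2 was also higher (6.97 ± 0.48). Troponin T, which ties the complex to tropomyosin, kept its heart form Tnnt2 high in both, with 14.48, 14.46 and 14.55 in CiCM against 15.36, 15.89 and 15.68 in CM. That difference of -1.15 fell under the limit of 1 after centring (-0.84), quantile normalization (-0.59) and levelling on the controls (-0.57). The slow Tnnt1 (4.66) and the fast Tnnt3 (9.87) were higher. For troponin C, which binds calcium, the form shared by heart and slow muscle, Tnnc1, did not pass (-0.60), and the fast form Tnnc2 read 14.40, 14.60 and 14.56 against 5.26, 3.91 and 2.67.

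Myosin heavy chains, the motors themselves, followed the same order. Myh6, the fast heart myosin of the adult mouse, read 6.75, 8.0 and 6.64 in CiCM and 15.41, 15.94 and 15.79 in CM, a difference of -8.58 ± 0.92 (adjusted p = 1.52e-05). Its MEF mean was 2.60. Myh7, the slow heart myosin that the mouse heart uses before birth, went the other way, with 12.82, 12.62 and 12.91 against 10.62, 9.56 and 8.72 (3.15 ± 0.46, adjusted p = 0.00014). The CM arrays were spread widely for Myh7, and the CiCM arrays lay above all of them. The embryonic skeletal Myh3 read 14.08, 14.20 and 14.26 in CiCM against 3.73, 4.87 and 5.35 in CM, a difference of 9.53. The perinatal Myh8 read 14.34, 14.46 and 14.60 against 5.19, 4.42 and 1.58 (10.73). The adult fast forms Myh1 and Myh4 were higher by 9.51 and 9.40. These chains are near copies of each other, and how far their probe sets pick up each other's transcripts was not tested.

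The starts of 4 of these genes are shown because they stand for the exchange: Tnni1 and Myh8 are among the 3 genes with the largest difference and Tnni3 and Myh6 among the 3 with the most negative one. Each sequence is the 250 bases before the start of transcription in RefSeq, written 5′ to 3′ on the gene's strand, from the table of promoters of build GRCm38.p6; Tnni1 has 2 listed starts and the first is shown. Capitals mark the motifs searched on both strands: CAGCTG, an E-box that myogenic factors can bind; CTANNNNTA, the core of MEF2 sites; CATTCC, the M-CAT site of TEAD factors; and TATAAA, the TATA box, which can overlap CTANNNNTA.
Tnni1, higher in CiCM, chr1:135799171-135799420, plus strand: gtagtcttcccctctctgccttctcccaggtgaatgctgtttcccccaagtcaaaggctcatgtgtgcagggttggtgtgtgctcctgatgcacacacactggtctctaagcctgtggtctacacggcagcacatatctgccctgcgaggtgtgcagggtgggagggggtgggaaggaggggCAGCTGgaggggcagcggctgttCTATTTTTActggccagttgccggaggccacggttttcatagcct
Myh8, higher in CiCM, chr11:67276874-67277123, plus strand: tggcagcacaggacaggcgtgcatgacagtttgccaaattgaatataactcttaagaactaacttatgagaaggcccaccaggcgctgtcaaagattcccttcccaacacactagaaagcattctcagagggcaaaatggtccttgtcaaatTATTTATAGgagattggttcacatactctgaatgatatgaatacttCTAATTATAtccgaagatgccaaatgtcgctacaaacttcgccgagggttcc
Tnni3, lower in CiCM, chr7:4522529-4522778, minus strand: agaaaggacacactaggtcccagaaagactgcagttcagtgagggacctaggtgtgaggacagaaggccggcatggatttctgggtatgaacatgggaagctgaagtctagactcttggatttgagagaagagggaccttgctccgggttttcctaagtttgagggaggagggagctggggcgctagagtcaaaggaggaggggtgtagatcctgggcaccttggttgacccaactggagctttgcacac
Myh6, lower in CiCM, chr14:54966608-54966857, minus strand: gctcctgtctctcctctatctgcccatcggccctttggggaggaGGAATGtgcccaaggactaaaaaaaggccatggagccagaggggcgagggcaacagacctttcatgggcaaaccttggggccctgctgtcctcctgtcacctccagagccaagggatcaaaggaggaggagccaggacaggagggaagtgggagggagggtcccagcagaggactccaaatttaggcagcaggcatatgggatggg

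Counted from the start, with -1 the base before it, the Tnni1 stretch holds CAGCTG at -68 and CTANNNNTA at -45. That of Myh8 holds CTANNNNTA at -98 and -52 and a TATAAA at -96 inside the first of them, both read on the other strand. The Myh6 stretch holds CATTCC at -206, on the other strand, and none of the 4 motifs is in the 250 bases of Tnni3. Tnnc2, with the largest difference, and Pln, among the most negative, were searched too and are not shown. The stretch of Tnnc2 holds none of the 4 motifs, and that of Pln holds a TATAAA at -219. Over the 20 skeletal sarcomere genes called higher, 14 had a promoter in the table. Of these 14, CAGCTG was in 7, CTANNNNTA in 8, CATTCC in 5 and TATAAA in 7. Over the 27025 genes of the promoter table the shares were 12.8%, 19.0%, 12.6% and 13.0%, and over the 10090 tested genes with a promoter 11.8%, 12.8%, 10.9% and 6.95%. Among all 1629 genes called higher that had a promoter the shares were 13.4%, 13.0%, 11.9% and 9.33%, close to those of the 1873 called lower (12.9%, 12.9%, 10.7% and 8.54%). Of 13 cardiac sarcomere genes called lower, CAGCTG was in 2, CTANNNNTA in 2, CATTCC in 5 and TATAAA in 0. In other lists CAGCTG was in 0 of 5 myogenic regulators and fusion genes called higher and in 4 of 6 triad genes called higher. Among genes called lower it was in 3 of 8 of cardiac calcium handling, 4 of 27 of complex I and 3 of 21 of fatty acid use. These matches describe letters in a window, not binding.

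In actin and the light chains some heart forms differed by smaller steps. Actc1, the heart actin, read 13.71, 13.60 and 13.67 in CiCM and 15.19, 15.80 and 15.62 in CM, so it was lower by a modest step (-1.88 ± 0.14, adjusted p = 9e-07). Acta1, the skeletal actin, read 14.75, 14.94 and 15.01 against 10.20, 10.88 and 10.68 (4.32 ± 0.16, adjusted p = 1.04e-08). Both actins stayed far above the MEF means of 7.14 and 9.69 in CiCM. The ventricular light chain Myl2 had a difference of -1.99, whereas Myl3, the light chain of ventricle and slow muscle, read 9.0, 8.87 and 7.96 against 15.23, 15.73 and 15.69 (-6.94). Mylpf, the fast regulatory light chain, differed by 8.07.

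Among thick filament and Z-disc proteins the split was sharper. The heart form of myosin binding protein C, Mybpc3, was at 6.08, 6.86 and 5.88 in CiCM and at 14.23, 14.70 and 14.67 in CM (-8.26 ± 0.32, adjusted p = 1.33e-08). The slow form Mybpc1 (8.25) and the fast form Mybpc2 (4.59) were higher. Nebl, the short heart member of the nebulin family, differed by -7.68 and Neb, the long skeletal one that sets thin filament length, by 6.42. Alpha-actinin, which crosslinks actin in the Z-disc, had its fast form Actn3 higher (9.02), and its general muscle form Actn2 did not pass (-1.27, adjusted p = 0.111), nor did Myoz2 (-1.23, adjusted p = 0.198). Actn2 and Myoz2 passed when only the CiCM and CM arrays were fitted (adjusted p = 0.000174 and 0.000404), and each of them also passed without 1 MEF array, Actn2 without replicate 2 (adjusted p = 4.79e-05) and Myoz2 without replicate 3 (0.000227). Myom2 (-1.63), an M-band protein, passed in that smaller fit as well (5.53e-05).

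As lists, the 28 cardiac sarcomere genes tested held 4 higher and 14 lower ones with a median difference of -1.59, and the 23 skeletal sarcomere genes 20 higher and 0 lower ones with a median of 6.97, beside 16.5% higher, 19.0% lower and a median of -0.03 over all genes tested. Of the 24 skeletal genes with a probe set, 23 had means above 6.58 in CiCM, 11 in CM and 2 in MEF. Some therefore entered the test through CiCM alone. The 4 cardiac genes that were higher were Tnni1, Acta1, Myl4 and Myh7. Of these Myl4, the atrial and fetal light chain, rested on unequal CM arrays: it read 14.50, 14.70 and 14.54 in CiCM and 14.92, 9.67 and 8.36 in CM. CM replicate 1 lay above all CiCM arrays, so the groups overlapped, and the difference of 3.60 lost its call without CM replicate 2 (2.94, adjusted p = 0.102), without CM replicate 3 (2.28, 0.11) or without any 1 CiCM array (3.54 to 3.64, 0.0639 to 0.0691), and as the mean over its probe sets (2.25, 0.0639).

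Most tested regulators of skeletal muscle formation were higher in CiCM. Of 13 tested genes of this list 10 were higher, 0 were lower and the median difference was 3.29, with 6 of 18 genes above the line in CM; 5 further genes, among them Myf5, Pax3 and Pax7, lay under the line in all 3 cell types. Myog (myogenin), which drives the last step of skeletal muscle differentiation, read 12.73, 12.61 and 12.43 in CiCM and 4.08, 2.22 and 5.37 in CM (8.70 ± 1.24, adjusted p = 0.000123). Myod1, which starts that programme, read 10.22, 10.09 and 10.09 against 2.80, 5.76 and 6.30 (5.17 ± 1.07, adjusted p = 0.00158). In both genes every CM array was under the line of 6.58, and so were the MEF means of 4.03 and 4.23. Myf6, the late myogenic factor, differed by 6.82, and Mymk (myomaker), a membrane protein that myoblasts need to fuse, by 8.13. Mef2c, which heart and skeletal muscle share, read 12.98, 12.99 and 13.24 against 11.09, 10.75 and 10.82 and was higher by 2.18.

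The receptor apparatus of the neuromuscular junction was part of the same side, with 6 of 10 genes tested higher and 0 lower (median 2.37). Of 12 genes with a probe set, 10 had means above the line in CiCM, 5 in CM and 2 in MEF. Some therefore entered the test through CiCM alone. Chrna1, the ligand-binding subunit of the muscle acetylcholine receptor, read 13.03, 13.13 and 13.24 in CiCM and 5.02, 4.90 and 5.53 in CM (7.99 ± 0.22, adjusted p = 1.92e-09). The fetal subunit Chrng was higher by 6.16, the beta subunit Chrnb1 by 3.47 and the receptor kinase Musk, which gathers the receptors, by 5.16. Dok7, Lrp4, Ache and Agrn did not pass.

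Calcium release and uptake changed partner by partner. The heart ryanodine receptor Ryr2, the release channel of the sarcoplasmic reticulum, read 4.93, 4.71 and 5.94 in CiCM and 13.91, 14.16 and 14.34 in CM (-8.95 ± 0.37, adjusted p = 2.04e-08). All CiCM arrays were under the line, near the MEF mean of 5.06. The skeletal receptor Ryr1 read 12.54, 12.66 and 13.01 against 1.64, 2.61 and 1.40 (10.86 ± 0.45, adjusted p = 2.08e-08). Ryr3, the minor form, overlapped between the groups, and its difference of 1.55 lost the call without CM replicate 2 (0.99, adjusted p = 0.113), CM replicate 3 (1.30, 0.0971) or any 1 CiCM array (1.50 to 1.62, 0.0602 to 0.0773), with only the CiCM and CM arrays fitted (0.0509) and with a large offset added (0.86). The voltage sensor exchanged likewise: Cacna1c, the L-type channel of the heart, was lower (-3.15) and Cacna1s, that of skeletal muscle, higher (3.88).

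The pump that returns calcium and its brakes were not all on one side. Atp2a2, the heart and slow muscle pump, did not pass, at 14.34, 14.45 and 14.56 in CiCM against 14.98, 15.51 and 15.38 in CM (-0.84), although its 6 probe sets ranged from -2.23 to -0.33 and their mean did (-1.37, adjusted p = 1.18e-06). Atp2a1, the fast pump, was higher (5.65). Pln (phospholamban), the brake on the heart pump, read 5.62, 7.29 and 6.66 against 14.97, 15.61 and 15.35 (-8.79 ± 0.34, adjusted p = 1.43e-08). The calcium store protein Casq2 of the heart did not pass (-0.78), and Casq1 of skeletal muscle differed by 5.51. Of 14 cardiac calcium handling genes tested 8 were lower and 0 higher (median -1.79), and of 15 genes of the triad, the junction of skeletal muscle, 11 were higher and 1, Jph2, was lower (median 3.48); the Jph2 difference of -1.50 went to -0.93 after levelling on the controls.

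Ion channels that shape the heart's action potential formed one of the lowest groups. Of 16 tested 13 were lower and 1 was higher, with a median of -3.34. Of 17 with a probe set, 16 had means above 6.58 in CM, 6 in CiCM and 4 in MEF. Some therefore entered the test through CM alone. Kcnip2, the partner subunit of the early repolarising current, read 1.40, 2.68 and 3.50 in CiCM and 10.92, 11.79 and 11.73 in CM (-8.96 ± 0.62, adjusted p = 6.22e-07). Kcna5, of an ultrarapid potassium current, differed by -7.42, Kcnj5, of the acetylcholine-gated current, by -6.73 and Kcnj8, of the ATP-sensitive current, by -5.22. The pore subunits of the early current, Kcnd2 and Kcnd3, differed by -4.19 and -4.18, and Kcnq1 and Kcnh2, of the delayed currents, by -3.22 and -3.33. The gene that was higher was Cacna1g, a T-type calcium channel (1.24, or 0.80 and no longer called with a large offset added to the signals), and Kcnj11 and Cacna1h did not pass.

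**Figure D3:**
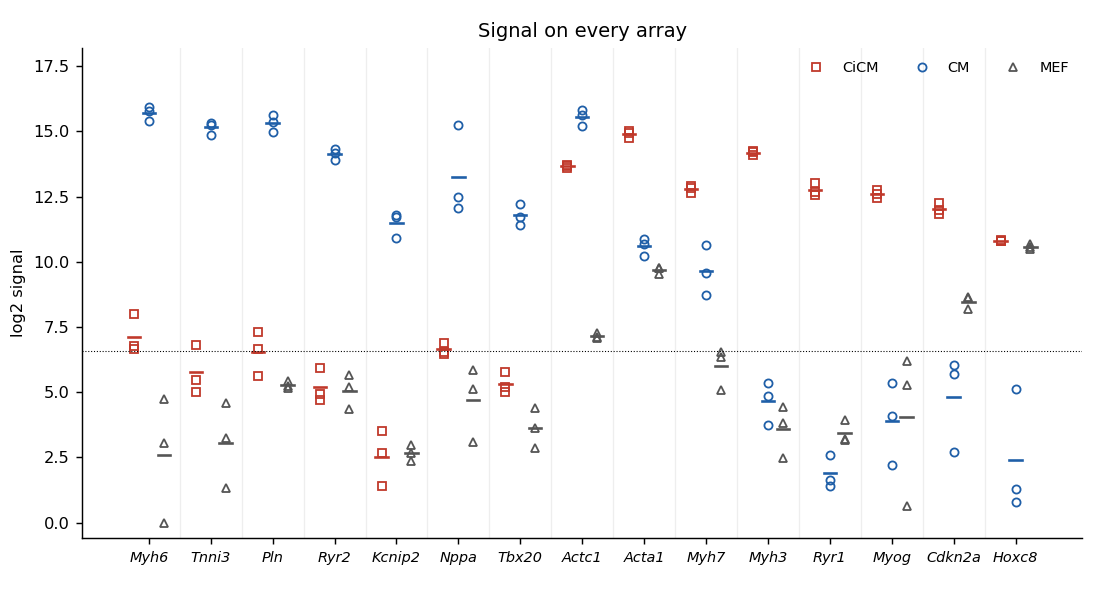
Log2 signal of 15 genes on every array (CiCM red squares, CM blue circles, MEF grey triangles), with a bar at each group's mean and a dotted line at the filter of 6.58. Myh6, Tnni3, Pln, Ryr2, Kcnip2, Nppa and Tbx20 are high in CM alone, Actc1 is high in CiCM and CM, and Acta1, Myh7, Myh3, Ryr1, Myog and Cdkn2a are highest in CiCM; Hoxc8 is near 10.8 in CiCM and 10.6 in MEF.

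Transcription factors of the heart were mostly lower. Of 21 tested, 13 were lower and 3 higher (median -2.58). Tbx20, a T-box factor of heart muscle, read 5.02, 5.78 and 5.18 in CiCM and 12.21, 11.72 and 11.39 in CM (-6.45 ± 0.41, adjusted p = 3.84e-07). Nkx2-5, an early factor of heart progenitors, read 5.68, 6.77 and 6.51 against 10.06, 10.32 and 10.40 (-3.94 ± 0.30, adjusted p = 1.33e-06). Gata4, its zinc finger partner, read 5.86, 6.54 and 6.64 against 9.94, 9.48 and 9.85 (-3.41 ± 0.30, adjusted p = 3.9e-06). For these 3 factors every CM array was above every CiCM array and the CiCM means lay under the line of 6.58. Hopx, a homeodomain protein without DNA binding of its own, differed by -6.83, Myocd (myocardin), the coactivator of serum response factor, by -5.37, Hand2 by -4.07, Tbx5 by -3.38 and Gata6 by -2.96. Another probe set of Hand2 differed by -1.32.

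Besides Mef2c, the factors that were higher were Isl1 and Tbx3. Isl1, a factor of heart progenitors and motor neurons, read 7.34, 7.48 and 7.32 against 4.08, 4.48 and 3.29 (3.43). Tbx3, which marks the conduction system, had a difference of 1.21 that lost its call without CM replicate 2 (0.96) and turned to -0.05 when its probe sets were averaged. Mef2a, Irx3, Irx5, Tbx2 and Tbx18 did not pass.

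The natriuretic peptides, hormones that heart muscle secretes under load, were low in CiCM. Nppa read 6.48, 6.54 and 6.89 in CiCM and 15.24, 12.50 and 12.05 in CM (-6.63 ± 0.83, adjusted p = 4.57e-05). Nppb read 6.98, 7.09 and 6.37 against 14.32, 12.95 and 12.17 (-6.34). Corin, the protease that activates the Nppa product, differed by -7.49. Of 9 tested genes of the list on natriuretic peptides and stress 4 were lower and 0 higher, and Ankrd1 and Rcan1, which respond to strain and calcineurin, did not pass (-0.33 and 0.83).

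Some genes of the atrium and of brown fat were much higher on CM replicate 1 than on CM replicates 2 and 3. Myl7, the atrial regulatory light chain, read 15.05 on it against 9.25 and 5.98 on the others, and 4.38, 4.86 and 4.74 on the CiCM arrays. Sln (sarcolipin), an atrial brake on the calcium pump, read 14.95 against 8.14 and 2.97 and did not pass (-0.75). Ucp1, the uncoupler of brown fat, read 13.27 against 6.60 and 3.64, and 2.28, 2.18 and 1.88 in CiCM. Without this array the difference of Myl7 went from -5.44 to -2.96 (adjusted p = 0.0793) and that of Ucp1 from -5.73 to -3.01 (adjusted p = 0.27), so neither kept its call; both also lost it without any 1 of the CiCM arrays (adjusted p 0.0596 to 0.0707), and Ucp1 also with 32 added to the signals (-3.40, 0.0556). The median over the 11 atrial genes tested was -0.88 with the array and 0.25 without it. Of the 10 ventricular genes, which include Irx4 (-6.36) and Hey2 (-2.46), 9 were lower and Myh7 was higher, with a median of -3.76.

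Genes of the intercalated disc, where heart cells are joined, were lower almost throughout, with 13 of 15 tested lower, 0 higher and a median of -2.43. Dsp (desmoplakin), which anchors the filaments at desmosomes, read 8.42, 8.73 and 8.61 in CiCM and 14.30, 14.53 and 14.50 in CM (-5.85 ± 0.18, adjusted p = 3.22e-09). Its partners Dsg2 (-6.67), Dsc2 (-7.97) and Pkp2 (-3.16) were lower as well. The gap junction protein Gja1 (connexin 43) read 13.06, 13.26 and 12.94 against 14.24, 14.65 and 14.22. Its difference of -1.28 was under 1 in size after centring (-0.98), quantile normalization (-0.99) and levelling on the controls (-0.71). Vinculin (Vcl) did not pass, with a difference of 0.62.

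Most genes of oxidative metabolism that were tested were lower in CiCM. Of 26 genes of fatty acid use tested 24 were lower and 0 higher (median -2.41), of 14 genes of ketone and branched chain amino acid use 13 were lower and 0 higher (-2.44), and of 21 genes of the citrate cycle and pyruvate entry 20 were lower and 0 higher (-1.56); in the last list 17 were lower after quantile normalization, 15 after centring and 10 after levelling on the controls. Lpl, which frees fatty acids from lipoproteins, read 10.66, 10.88 and 10.82 in CiCM and 15.03, 15.59 and 15.42 in CM (-4.56 ± 0.13, adjusted p = 2.45e-09). Cd36, a fatty acid importer, differed by -4.0, Cpt2, of the carnitine shuttle, by -3.39 and Acaa2, the last enzyme of beta-oxidation, by -3.22. Cpt1a, the liver form of the shuttle's entry enzyme, did not pass (0.08). Oxct1, which lets heart muscle use ketone bodies, differed by -3.65 and Idh2, of the citrate cycle, by -4.47.

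In the respiratory chain most differences were smaller. Of 33 genes of complex I, 29 were lower (median -1.36, quartiles -1.59 and -1.15), and of complexes II and III, 12 of 14 (median -1.46); none of these was higher. In complex V 9 of 15 were lower (median -1.01) and in complex IV 6 of 14 were lower and 1 was higher (median -0.94). Ndufs1, the largest subunit of complex I, read 12.07, 12.14 and 12.35 in CiCM and 13.93, 14.26 and 14.36 in CM (-1.99 ± 0.12, adjusted p = 2.33e-07). Steps of this size are close to the shift that scaling can move: after quantile normalization 19 of the 33 genes of complex I, 9 of the 14 of complexes II and III, 3 of the 14 of complex IV and 2 of the 15 of complex V were lower. After levelling on the controls 9, 5, 2 and 1 were.

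Cytochrome oxidase subunits with a muscle form showed where the difference was largest. Cox7a1, the muscle form, read 10.63, 10.88 and 10.78 in CiCM and 14.63, 15.23 and 15.04 in CM (-4.20 ± 0.20, adjusted p = 4.33e-08). The widely used form Cox7a2 had a difference of -1.02, lost without CM replicate 2 (-0.90) or CM replicate 3 (-0.99) and after each rescaling. Cox6a2 and Cox8b, muscle forms too, differed by -1.49 (-0.92 and not called after levelling on the controls) and -2.27, and Cox6a1 and Cox8a, used in most tissues, did not pass (-0.03 and -0.12). Cox8b lost its call without CM replicate 2 or 3 or CiCM replicate 1 or 3 (adjusted p 0.0505 to 0.0594). The single member that was higher, Cox6b2, is a testis form (2.12).

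Of 13 regulators of mitochondrial genes 7 were lower and 0 higher (median -1.09), and 4 were lower after levelling on the controls (median -0.51). Ppargc1a, the coactivator that drives mitochondrial growth, read 7.56, 7.37 and 7.65 in CiCM and 11.04, 11.05 and 11.06 in CM (-3.53 ± 0.26, adjusted p = 1.07e-06). Its targets and partners Perm1 (-5.59), Esrrg (-4.05) and Ppara (-3.95) were lower, and Tfam, which packs mitochondrial DNA, did not pass (-0.38). The probe sets of Esrrg ranged from -4.64 to -0.75. In glycolysis the shares were near those of all genes: of 27 genes tested 7 (25.9%) were lower and 3 (11.1%) higher, beside 19.0% and 16.5%. The median of -0.45 changes sign after levelling on the controls. Ldhb, the heart form of lactate dehydrogenase, was at 11.70, 11.77 and 12.02 against 14.17, 14.64 and 14.60 (-2.64), and Ldha did not pass (-0.05). The insulin-driven glucose carrier Slc2a4 was lower (-3.63), and Slc2a1, the carrier of growing cells, did not pass with 0.86, though it did after centring (1.17) and after levelling on the controls (1.44).

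Inhibitors of cell division were higher in CiCM and few division genes were. Of 15 inhibitors and p53 targets, 9 were higher and 2 lower (median 2.25). Cdkn2a, the locus of p16 and p19Arf, read 12.26, 12.00 and 11.81 in CiCM and 6.04, 2.70 and 5.68 in CM (7.22 ± 0.68, adjusted p = 6.01e-06). Its neighbour Cdkn2b differed by 6.42. Cdkn1a (p21), a target of p53 that also rises when muscle cells leave the cycle, read 13.91, 14.02 and 14.01 against 10.57, 9.69 and 9.48 (4.06). MEF means of these 3 genes were 8.47, 10.58 and 12.73. Of 32 cell cycle genes 13 were lower in CiCM and 2, Rrm2 and Ccne1, higher (median -0.83); after levelling on the controls 8 were lower and 3 higher (median -0.26). Rrm2 lost its call without CM replicate 2 (0.78) and with a large offset added (0.87). The lowest were Cenpf (-5.97), Cenpa (-4.45) and Mki67 (-3.06), genes of the kinetochore and of dividing nuclei. Another probe set of Cenpf differed by -1.66. The list's summed signal was 15165 to 16495 in CiCM, 19619 to 21927 in CM and 77133 to 78968 in MEF.

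Matrix and fibroblast genes remained high in CiCM beside CM. Of 22 collagens 13 were higher and 1 lower (median 1.55), of 27 other matrix proteins and crosslinkers 17 were higher and 1 lower (1.73), and of 24 fibroblast markers 14 were higher and 3 lower (1.31). Col1a1, the main chain of fibrous collagen, read 13.50, 13.62 and 13.69 in CiCM and 8.41, 8.19 and 9.14 in CM (5.03 ± 0.21, adjusted p = 2.17e-08). Its MEF mean was 13.32. Col12a1, a collagen that coats fibrils, read 14.04, 13.96 and 13.96 against 7.40, 5.69 and 5.21 (7.88). The crosslinking enzyme Lox differed by 5.36, the adhesion protein Tnc (tenascin C) by 6.31 and Mfap4 of elastic fibres by 6.92.

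Among fibroblast markers Twist2 (5.46) and Twist1 (4.42), factors of mesenchyme, and the surface protein Thy1 (2.44) were higher. The 3 that were lower were Pi16 (-6.84), Tcf21 (-3.86) and Nt5e (-1.40, or -0.82 after levelling on the controls and -0.57 over its probe sets), of which Pi16 and Tcf21 mark fibroblasts of adult tissue and of the heart. Dcn, Lum and Vim did not pass (-0.46, -0.24 and 0.17) and were high in CM as well. The summed signal of the list was 154321 to 161757 in CiCM, 63651 to 81104 in CM and 184996 to 186898 in MEF. Of 13 smooth muscle genes 8 were higher and 2 lower. Actg2, the enteric smooth muscle actin, read 12.47, 12.11 and 11.49 against 7.01, 7.56 and 7.45 (4.68), and Tagln differed by 3.78. Myh11, the smooth muscle myosin, did not pass (0.00), and Rgs5, which marks pericytes, was lower (-5.57).

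Some gene groups lie downstream of the pathways that the compounds act on, and the labels state no such treatment for CM. Of 16 Wnt and beta-catenin genes, 12 were higher and 2 lower (median 2.17). The summed signal of the list was 16660 to 19833 in CiCM, 6101 to 10053 in CM and 15520 to 16351 in MEF, so the untreated starting cells also lay above CM. Lgr5, a target and amplifier of the pathway, read 8.49, 8.69 and 9.40 in CiCM and 6.15, 4.59 and 1.55 in CM (4.77 ± 0.89, adjusted p = 0.00083). The feedback inhibitor Nkd2 differed by 3.07 and the Wnt antagonist Sfrp1 by 3.46. Axin2, the most used readout of the pathway, differed by 1.19, which was 0.99 without CM replicate 2 and thus no longer called, nor was it with a large offset added (0.81) or over its probe sets (1.01, limma adjusted p = 0.135). The 2 lower genes were Ccnd1 (-1.90) and Bmp4 (-1.69). The MEF means of Lgr5, Nkd2 and Axin2 were 7.85, 8.42 and 6.58.

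Retinoic acid genes went both ways. Of 17 tested, 7 (41.2%) were higher and 3 (17.6%) lower, beside 16.5% and 19.0% over all genes tested, so the share of lower ones was near that of all genes. Cyp26a1, which breaks retinoic acid down and is induced by it, read 9.80, 10.01 and 10.08 in CiCM and 3.36, 3.41 and 5.35 in CM (5.92 ± 0.64, adjusted p = 1.68e-05). Its relative Cyp26b1 differed by 5.22, the carrier proteins Crabp1 and Crabp2 by 11.07 and 7.19, and the receptor Rarb by 1.42. Crabp1 was also high in MEF (mean 13.82), whereas Cyp26a1 was not (2.09). The synthetic enzymes Aldh1a1 (-2.78) and Aldh1a2 (-2.28) were lower, as was the receptor Rxrg (-2.33).

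Of 18 genes of the TGF-beta response 10 were higher and 1, the feedback inhibitor Smad7, was lower (median 1.60); its difference of -1.22 lost the call without CiCM replicate 3 (-1.0), after centring (-0.91) and after levelling on the controls (-0.64). The summed signal of the list was 51824 to 54456 in CiCM, 17159 to 35125 in CM and 106676 to 108224 in MEF. Fst (follistatin), which binds activins, read 11.02, 11.00 and 11.03 against 7.16, 5.82 and 5.36 (4.91), the ligand Tgfb2 differed by 2.81 and Ltbp2 by 3.64. Of 22 cAMP-responsive and immediate early genes 11 were higher and 3 lower (median 1.18). The summed signal of that list was 36253 to 53041 in CiCM, 20753 to 25639 in CM and 37100 to 39183 in MEF. Fos, an early response factor, read 13.25, 12.89 and 12.14 in CiCM and 9.68, 8.76 and 6.95 in CM (4.30 ± 0.55, adjusted p = 5.4e-05). Nr4a3 differed by 3.32, and Pde4d (-1.57), Per1 (-1.73) and Egr3 (-3.04) were lower. Averaged over their probe sets, Nr4a3 (1.0), Pde4d (-1.14) and Egr3 (-1.04) lost their calls, with limma adjusted p of 0.0508, 0.158 and 0.172. Of 14 Notch genes 8 were lower and 1, Hes6, was higher (median -1.41), with Notch4, a receptor of endothelium, at -5.07. Another probe set of Notch4 differed by only -0.997. Of 15 BMP and Id genes 6 (40%) were higher and 5 (33.3%) lower, beside 16.5% and 19.0% over all genes tested. Among them were the antagonist Grem1 (4.09) and the ligand Bmp6 (-2.19).

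Genes of fetal growth and of body position set the groups apart. Of 24 Hox genes tested 23 were higher and 0 lower, with a median of 3.45, and 24 of 31 with a probe set were above 6.58 in CiCM, 4 in CM and 21 in MEF. Hoxc8, a gene of the trunk, read 10.79, 10.80 and 10.82 in CiCM and 5.13, 1.28 and 0.80 in CM (8.40 ± 0.87, adjusted p = 1.15e-05). The MEF mean was 10.58. Hoxa9 (7.65, or 2.60 at another probe set), Hoxc4 (6.03) and Hoxb9 (5.06) followed, and Hoxa5 was the one that did not pass (0.75). Of 15 imprinted and fetal growth genes 9 were higher and 0 lower (median 1.68). Igf2, the fetal growth factor, read 14.30, 14.42 and 14.51 against 10.80, 10.10 and 9.89 (4.14), and the noncoding Rian, expressed from the maternal copy of its region, differed by 5.00. Binding proteins of the IGFs were higher too, Igfbp2 by 5.69 and Igfbp3 by 3.14.

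**Figure D4:**
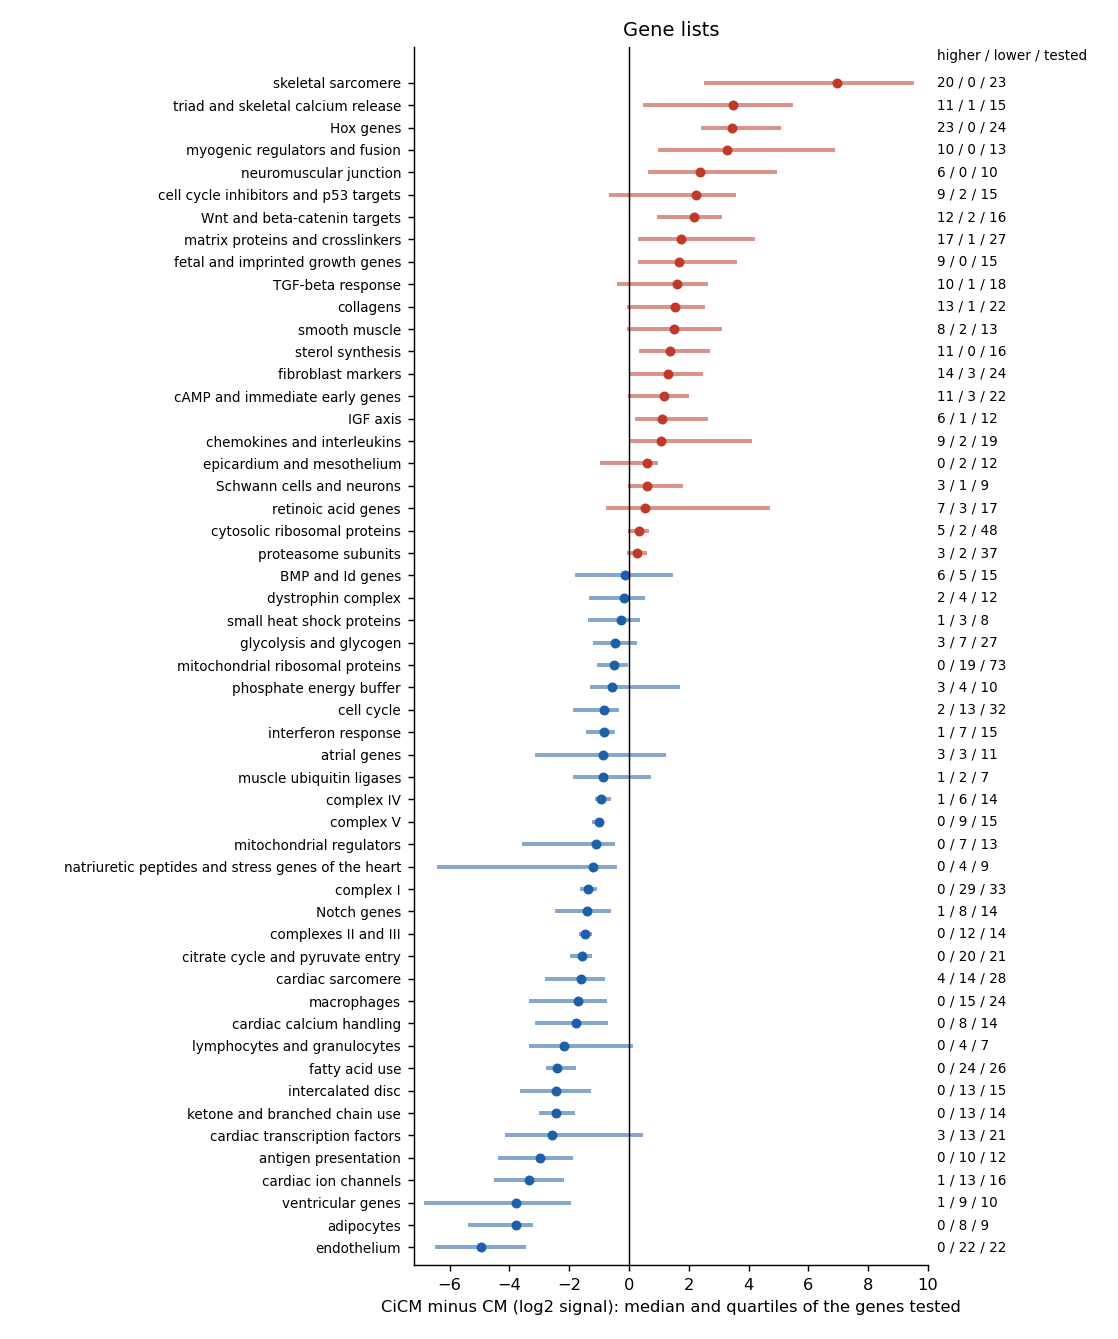
Median (point) and quartiles (bar) of the difference CiCM minus CM in log2 signal over the tested genes of each list with at least 7 tested genes, in red where the median is above 0 and in blue where it is below; the numbers at the right are the genes higher, lower and tested. Skeletal sarcomere genes are at the top with a median of 6.97 and endothelial genes at the bottom with -4.96, and the median over all genes tested is -0.03.

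CM carried the markers of other cells of the heart. All 22 endothelial genes tested were lower in CiCM, with a median of -4.96. In CM 22 had means above the line, in CiCM 8 and in MEF 8, so some entered the test through CM alone. Their summed linear signal was 2476 to 2970 on the CiCM arrays, 77238 to 87206 on the CM arrays and 5741 to 6045 on the MEF arrays. Pecam1, the adhesion protein CD31 of vessel lining, read 3.61, 3.04 and 3.83 in CiCM and 11.11, 10.60 and 10.59 in CM (-7.27 ± 0.74, adjusted p = 1.01e-05). Of the 6 defining markers Pecam1, Cdh5, Kdr, Tek, Emcn and Cldn5, 6 were above the line in CM and 0 in CiCM. The part of these cells in other genes that were lower in CiCM, such as Fabp4, Cd36, Lpl and the Notch genes, was not tested.

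Macrophages and antigen presenting cells gave a similar but smaller contrast. Of 24 macrophage genes 15 were lower in CiCM and 0 higher (median -1.70), and 15 of 24 stayed above the line in CiCM, against 21 in CM and 24 in MEF. The summed signal was 7461 to 12108 in CiCM, 31614 to 42879 in CM and 55480 to 59761 in MEF. Csf1r, the receptor that macrophages need to survive, read 9.17, 9.42 and 8.92 in CiCM and 12.41, 12.25 and 12.27 in CM (-3.14 ± 0.12, adjusted p = 1.38e-08). Of 12 genes of antigen presentation 10 were lower and 0 higher (median -2.99). H2-Aa, a class II chain, read 2.67, 4.15 and 4.33 against 12.12, 12.64 and 12.10 (-8.57). Of 9 fat cell genes 8 were lower, with a summed signal of 821 to 1002 in CiCM and 44091 to 71467 in CM. Fabp4, which endothelium also makes, gave 32727 to 38874 of the CM sums, and without it the sums were 536 to 888 and 6331 to 38740. Of 7 red cell genes with a probe set 5 lay under the line in all cell types. Of the 2 tested 1, Alas2, the first enzyme of heme synthesis in red cells, was lower (-8.02), and the other was not called. These lists' part in the differences of heart genes was not tested.

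**Figure D5:**
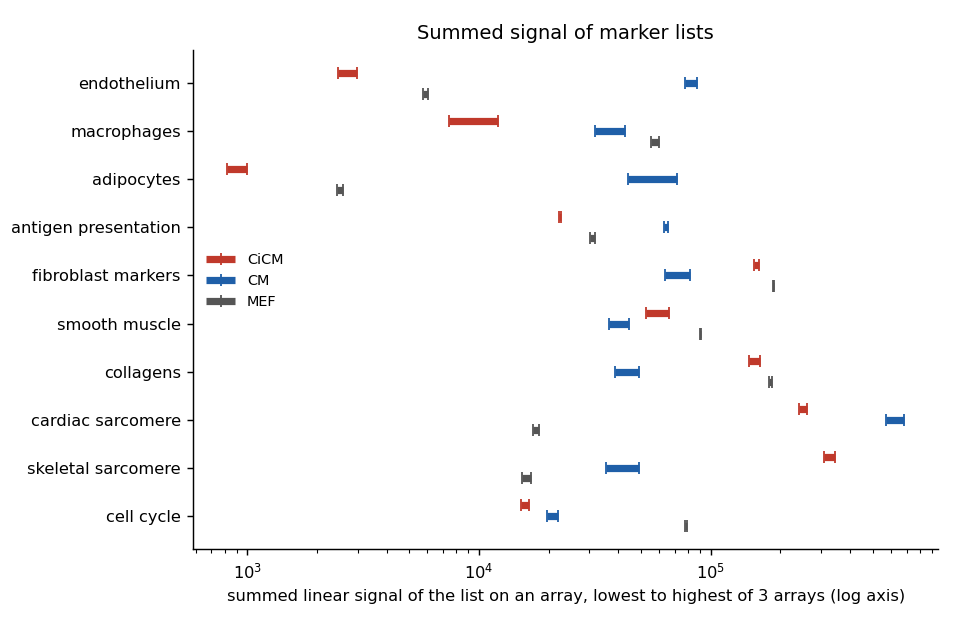
Summed linear signal of 10 marker lists on an array (horizontal, log axis), drawn from the lowest to the highest of 3 arrays for CiCM (red), CM (blue) and MEF (grey). The endothelial sum is 77238 to 87206 in CM and 2476 to 2970 in CiCM, the fat cell sum 44091 to 71467 and 821 to 1002 (6331 to 38740 and 536 to 888 without Fabp4, which both lists hold), and fibroblast markers, collagens and skeletal sarcomere genes are higher in CiCM than in CM.

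Secreted signals of inflammation were partly higher in CiCM. Of 19 chemokines and interleukins 9 were higher and 2 lower (median 1.06). Cxcl5, which draws neutrophils, read 13.57, 13.01 and 12.57 in CiCM and 6.17, 6.91 and 4.91 in CM (7.05 ± 0.41, adjusted p = 1.99e-07). Ccl2, which draws monocytes, read 12.06, 11.91 and 11.61 against 7.90, 6.83 and 6.59 (4.75), and Il6 differed by 6.77. Il6 read only 2.42, 1.01 and 0.48 in CM, and with 32 added to the signals its difference was 3.12, beside 4.45 for Ccl2. In MEF the means of these 3 genes were 10.53, 13.14 and 10.77. Enzymes of sterol synthesis were higher too, 11 of 16 tested with 0 lower (median 1.39). Averaged over probe sets 6 were higher (median 0.94), and 13 were without CM replicate 1 (median 1.92). The list's summed signal was 28591 to 32571 in CiCM, 9212 to 53850 in CM and 31427 to 32110 in MEF, so the highest CM array lay above all CiCM arrays. Sqle, which makes the precursor of the sterol rings, read 10.73, 10.96 and 11.03 in CiCM and 7.61, 6.82 and 6.68 in CM (3.87 ± 0.21, adjusted p = 1.15e-07), and Fasn and Scd1, of fatty acid synthesis, did not pass, with CM replicate 1 far above the other CM arrays in both. Of 15 interferon response genes 7 were lower and 1, Bst2, was higher (1.75), with Rsad2 at -4.18; 4 were lower after centring and 3 after levelling on the controls.

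Against the starting cells, 1286 of the 2075 genes higher in CiCM than in CM (62.0%) had a CiCM mean within 1 log2 unit of the MEF mean, and in 555 (26.7%) CiCM was above MEF by 1 or more. Of the 2387 genes lower in CiCM, 1403 (58.8%) were within 1 unit of MEF. Over all genes tested 73.3% were within that distance and 13.1% were above it. Col1a1, Hoxc8 and Crabp1 are examples of the first kind, and Tnni1, Myog and Ryr1, with MEF means of 4.09, 4.03 and 3.44, of the second. These counts use the CiCM arrays on both sides and are given without a test.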

How the data were processed

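RNA of 9 samples (MEF, CiCM and CM, 3 each, called biological replicates in the labels) had been hybridised to Affymetrix arrays. The deposited values are log2 signals of 45101 probe sets, made by the authors with MAS5 per the submitters' processing notes (no version given there), and they run from 0 to 15.94. They were used as deposited. Of the probe sets 34945 carry exactly 1 gene symbol in the platform annotation, 932 several and 9160 none, and 64 are controls; 3741 probe sets without a single gene lay above the filter line and were not used. For 18032 of the 18193 genes the Entrez identifier was in the RefSeq table, and 0 symbols differed.

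Differences CiCM minus CM came from limma 3.58.1 in R 4.3.3 (lmFit, eBayes with trend, 2-sided), fitted on all 9 arrays and adjusted by Benjamini-Hochberg over 12559 genes; the script was tested on simulated data. Calls needed an adjusted p below 0.05 together with a log2 difference of 1 or more. Of 1968 called genes with several probe sets above the line, 1777 (90.3%) had the same sign in all of them. Exact permutation of 3 against 3 arrays gives no p below 0.1 and was not used. The number of arrays limits the precision. No scan or labelling dates were used here.

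Genes and lists were chosen with earlier results of these data known. Named genes are a hand-written core of genes and isoform pairs, the 10 most different in each direction by the 32-added difference among those without overlap, and up to 4 called members of each list and direction. Other genes in the text (for example Irx4, Hey2, Kcnd2, Kcnd3, Kcnq1, Kcnh2, Hoxa5 and the members given as not passing) were picked after their values were seen. Alternatives were a small and a large offset on the signals, quantile normalization, centring, levelling on the hybridisation controls, other filters, the mean over probe sets, other fits and each array left out. The atrial list without CM replicate 1 and the marker sums without Ckm or Fabp4 were added after seeing the data. Motif positions were read with Python 3.11.15.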

Additional observations from a re-analysis of the deposited data

How the results depend on the processing

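The counts of 2075 genes higher and 2387 lower moved by over 1.5 times in few settings. They were 4023 and 1377 after levelling on the hybridisation controls, 865 and 1074 with a minimum difference of 2, and 4077 and 4012 with no minimum difference. Leaving out 1 array gave 1947 to 2235 higher and 2281 to 2391 lower. Samples of the same replicate number did not deviate together (r = 0.0171, 0.00407 and 0.0668), so the numbers were not taken as pairs, and a fit with the replicate block gave 2063 higher and 2371 lower. Over the named genes and all settings, 6927 values stayed on their side of the threshold, 228 lost and 21 gained a call, and 1 reversed, Tbx3 at -0.0545 as the mean over its probe sets. Of the list counts 2352 stayed within 1.5 times and 192 moved; of the list medians 943 stayed and 223 moved by more than the spread between arrays. The causes were not tested. Low signals limit the comparison: 663 of the genes called higher had a CM mean under 6.58, and 894 of those called lower had a CiCM mean under it, so their differences rest on 1 side near the noise.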

Other observations

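Stores of high-energy phosphate were divided between CiCM and CM. Of 10 genes tested 3 (30%) were higher and 4 (40%) lower in CiCM, beside 16.5% and 19.0% over all genes tested. The median was -0.56. After levelling on the hybridisation controls 4 were higher and 1 lower, with a median of 0.01. Ckmt2, the creatine kinase of muscle mitochondria, read 10.87, 11.21 and 11.53 in CiCM and 14.72, 15.40 and 15.38 in CM (-3.96 ± 0.62, limma adjusted p = 0.000242). Ampd1, the AMP deaminase of skeletal muscle, read 10.88, 10.79 and 10.90 against 0.42, 2.14 and 5.31 (8.24 ± 1.01, limma adjusted p = 3.96e-05). Gatm and Gamt, which make creatine, differed by 3.32 and 1.92. Myoglobin (Mb) was near the top in both, with 14.23, 14.24 and 14.29 against 15.04, 15.62 and 15.41, and its difference of -1.11 lost the call without CM replicate 2 (-0.97), after centring (-0.80), quantile normalization (-0.65) and levelling (-0.53), and over its probe sets (-0.74). Ckm, the muscle creatine kinase, differed by -1.40 and lost its call without CM replicate 2 (limma adjusted p = 0.0744), CM replicate 3 (0.073), CiCM replicate 1 (0.0576) or CiCM replicate 2 (0.0599), after levelling (-0.83) and quantile normalization (-1.04), and with array weights (limma adjusted p = 0.0816).

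Chaperones and protein turnover of muscle differed by single members. Of 8 small heat shock proteins and partners 3 (37.5%) were lower and 1 (12.5%) higher (median -0.27, turning to 0.31 after levelling on the controls). Hspb6 read 10.45, 10.50 and 10.63 in CiCM against 13.66, 14.10 and 14.25 in CM (-3.47), and Cryab did not pass (-0.77). Of 7 muscle ubiquitin ligases and partners 2 (28.6%) were lower, Asb2 (-2.85) and Fbxo32 (-2.67), and 1 (14.3%) was higher. Over all genes tested the shares were 19.0% and 16.5%. Of 12 genes of the dystrophin complex 4 (33.3%) were lower and 2 (16.7%) higher (median -0.16). After levelling 2 were lower and 3 higher (median 0.41).

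Counts in housekeeping families, chosen by name after values were seen, depended on the scaling. On the deposited scale cytosolic ribosomal proteins and proteasome subunits gave few calls, beside 16.5% higher and 19.0% lower over all genes tested. Of 48 cytosolic ribosomal proteins 5 (10.4%) were higher and 2 (4.17%) lower (median 0.33), and 16 and 1 after levelling on the controls (median 0.90). Of 37 proteasome subunits 3 (8.11%) were higher and 2 (5.41%) lower (median 0.29), and 18 and 2 after levelling (median 0.86). Of 73 mitochondrial ribosomal proteins 19 (26%) were lower and 0 higher, with a median of -0.50. The share of lower ones was thus above that of all genes tested. After centring 9 were lower, and after levelling 5 were lower and 1 higher (median 0.07).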
